A study of Mus musculus with 12 samples.

Results

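Gene expression in mesenchymal stem cells (MSCs) lacking Chd7 was compared with that in control cells after 5 days in osteogenic medium, with the weight on pathways and cell-type programs other than osteogenesis, PPAR signaling and adipogenesis. The comparison used 6 of the 12 RNA-seq libraries, 3 of control and 3 of knockout cells, and the genes with at least 1 FPKM in at least 3 of these 6 libraries. FPKM count the fragments of a gene relative to its length and to the depth of the library. Of the 54532 genes measured, 12258 met this rule and were tested. The other 6 libraries came from the same genotypes in adipogenic medium and served here for a second estimate of the spread and to ask whether the largest differences were the same there.

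Control cells were labelled WT and came, according to the methods of the study, from Chd7fl/fl mice. Knockout cells were labelled Chd7 KO and came from Prx1-cre;Chd7fl/fl mice, in which Cre is driven by the Prx1 promoter of limb mesenchyme and removes the second exon of Chd7. Both groups therefore carried the same floxed alleles, and only the knockout mice carried Cre. The mice were C57BL/6 and 4 weeks old. Marrow cells flushed from limb bones were grown in dishes and used at passage 3. Macrophages of such a culture arise from blood-forming cells, outside the limb mesenchyme in which the promoter drives Cre. The osteogenic supplements were ascorbic acid at 50 µM, β-glycerophosphate at 10 mM and the glucocorticoid dexamethasone at 10 nM. The adipogenic ones were dexamethasone at 1 µM, a higher dose than in osteogenic medium, isobutylmethylxanthine at 0.5 µM and insulin at 10 µg/ml. The labels do not say whether the 3 libraries of a group came from separate mice or cultures, so the p-values measure only the spread between these libraries, which may be technical.

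CHD7 is an ATP-dependent chromatin remodeler that binds enhancers and moves nucleosomes, and its loss in development is known for defects of the neural crest, heart, inner ear and skeleton. MSCs are the adherent stromal cells of the marrow, which make collagen matrix, contract, answer to BMP, Wnt, Hedgehog and IGF signals, and support blood formation through cytokines such as CXCL12. In culture they share the dish with marrow macrophages, phagocytes that depend on the receptor CSF1R and are rich in lysosomal proteins.

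Each library held between 17496340 and 18887201 fragments on genes, recovered from the smallest steps between FPKM values. A gene of 1 kilobase with 3 fragments would thus stand at 0.165 to 0.178 FPKM. Pearson's r of log2(FPKM + 1) across genes was 0.990 to 0.992 between libraries of a group and 0.980 to 0.983 between groups. No library stood apart. Replicates differed beyond counting noise, with a mean chi-square per gene of 2.78 to 3.96 where counting alone gives 1. Chd7 itself (ENSMUSG00000041235, chromosome 4 from 8690406 to 8867659 of GRCm38) was at 2.64, 2.67 and 2.77 FPKM in the control libraries and 2.03, 2.35 and 2.28 FPKM in the knockout libraries (log2FC -0.20 with a standard error of 0.0587, adjusted p = 0.0466 in limma). All knockout values lay below all control values, but the difference was small and passed narrowly. Leaving out any 1 library raised the limma adjusted p to between 0.0588 and 0.12. It was 0.154 with the spread shared with the adipogenic libraries, 0.127 without the expression filter, 0.0812 with a replicate block and 0.0519 with median-ratio scaling. With limma voom it was 0.003, without the mean-variance trend 0.0279, with another pseudocount 0.0459 and with equal FPKM sums 0.0462. A value for the whole gene is a weak check of the loss of 1 exon, and reads on that exon were not analysed.

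The cell type was checked before anything else. The label of mesenchymal stem cells described only some of the RNA. The gene with the highest level in the 6 libraries was Lyz2, the lysozyme of macrophages and neutrophils, at 8957 to 9355 FPKM in the controls and 11033 to 11249 FPKM in the knockouts. All 22 macrophage markers were expressed highly enough to be tested, among them Csf1r, the growth factor receptor of macrophages, Adgre1, which encodes F4/80, and the complement genes C1qa, C1qb and C1qc, and none was at 0. Their summed level was 16022 to 16532 FPKM in the controls and 17305 to 17781 FPKM in the knockouts. Without Lyz2 it was 7065 to 7263 FPKM in the controls and 6248 to 6532 FPKM in the knockouts. The 2 sums moved in opposite directions.

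Stromal genes were present beside them. The 26 stromal surface and niche factors summed to 839 to 855 FPKM in the controls and 948 to 985 FPKM in the knockouts, and 20 of them were tested. Col1a1, the main collagen of bone and stroma, was at 718, 587 and 642 FPKM in the controls and 744, 620.4 and 717 FPKM in the knockouts. The MSC surface marker Thy1 and the niche marker Lepr fell short of the expression filter, while Cd44, which macrophages also carry, was at 51.2 and 51.4 FPKM on average. Other members of the list stood well above the filter. In controls and knockouts Grem1 averaged 139 and 147 FPKM, Pdgfrb 42.2 and 44.7 FPKM, and Cxcl12 8.54 and 13.8 FPKM. The study identified its cells by flow cytometry of surface proteins, that of Thy1 among them. Most lymphoid, neutrophil and erythroid markers fell short of the expression filter. Among those above it were Pf4 of the megakaryocyte list, at 68.1 to 85.5 FPKM, and the lymphoid marker Cd4, at 4.09 to 6.66 FPKM. Of 13 lymphoid markers 6 were at 0 in all 6 libraries, as were 5 of 14 neutrophil and mast cell markers and 4 of 12 erythroid and megakaryocyte markers, and Ly6g, Mpo, Cd3e and Hbb-bs were among those at 0. In such bulk RNA, fewer cells of a type and less RNA per cell cannot be told apart, and the part of macrophage RNA in the results below was not tested.

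**Figure D1:**
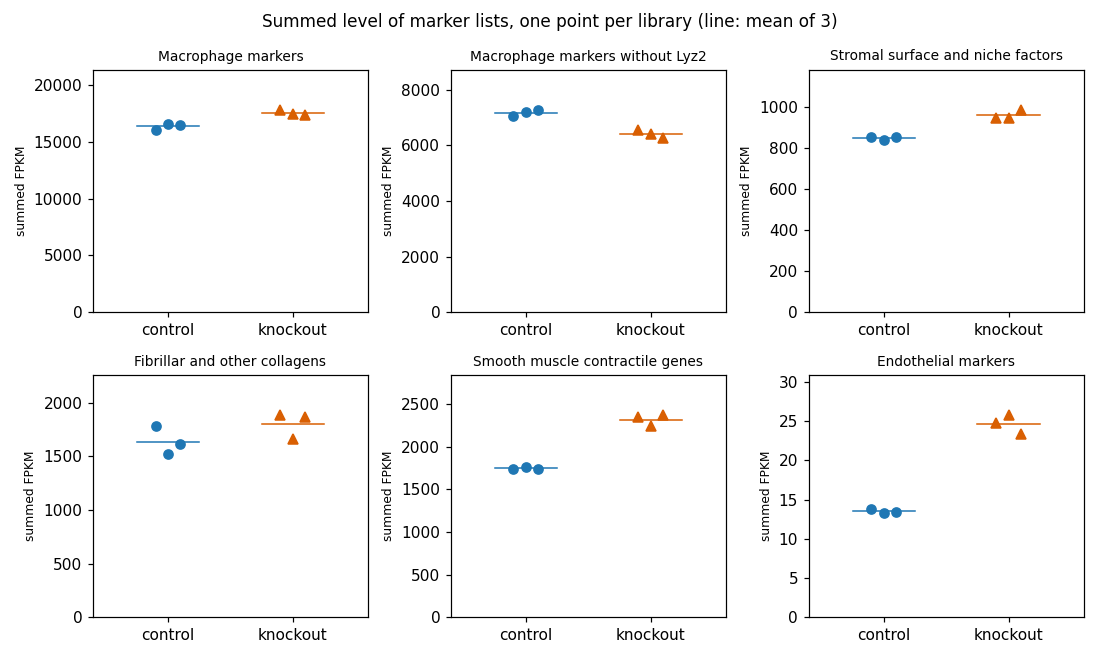
Summed FPKM of 6 marker lists in each library, with control libraries as circles, knockout libraries as triangles and a line at the mean of 3. The groups did not overlap for the macrophage list, with or without Lyz2, and endothelial markers summed to 13.3 to 13.9 FPKM in the controls and 23.4 to 25.8 FPKM in the knockouts.

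Of the 12258 genes tested, 3412 differed between knockout and control libraries (limma, adjusted p under 0.05), or 27.8%. Of these, 1668 genes were higher in knockout libraries (13.6% of those tested) and 1744 were lower (14.2%). The changes were small. The median size of a called change was 0.276 on the log2(FPKM + 1) scale, 405 genes changed more than 1.5-fold, and 80 more than 2-fold, 41 upward and 39 downward. The groups did not overlap for 45.3% of the tested genes. The median log2 fold change over all tested genes was -0.0075, which is the reference for the medians of gene lists. All log2 fold changes (log2FC) are of FPKM + 1, so those of weakly expressed genes are understated. Calls depended on how the spread was estimated. With a spread shared with the 6 adipogenic libraries, 1180 genes passed, 641 higher and 539 lower, and 1178 of these were among the 3412.

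The tested genes were grouped in 53 lists of pathways and cell-type markers. Members beyond the 4 with the smallest adjusted p and the 2 most abundant uncalled ones were named, here and below, after their values were seen. Contractile, mitotic, YAP target, Hedgehog, IGF and Wnt genes were mostly higher in knockout libraries. Glucocorticoid-induced genes and macrophage markers were mostly lower, and lysosomal genes were more often lower than higher. For ribosomal proteins, respiratory chain subunits and interferon-stimulated genes the shares of called genes lay under the background in both directions. Lists such as retinoic acid, BMP, clock, complement and immediate early genes lay above it in both.

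Of the tested genes 176 had all 3 values of a group under 1 FPKM and passed the filter only through the other group, so that the filter itself favoured a difference. Of the genes named below these are Arntl, Zbtb16, Cyp26b1, Cxcl5, Adra1a, Adrb1 and Mir763, which passed through the controls, and Bmp4, Wnt4, Ptch1, Igfbp3, Cdh5, Emcn and Pecam1, which passed through the knockouts. Their calls are no support for the lists that hold them. Counts and medians of lists below include such genes, and other lists hold some too. Without them the collagen list had 9 higher and 2 lower of 20 genes, and the collagen enzyme list 13 and 1 of 25. The adhesion list had 16 and 5 of 29, the guidance list 11 and 4 of 27 and the stromal list 9 and 2 of 19. The p53 list had 9 and 4 of 25 and the chondrocyte list 2 and 1 of 5. Without such genes the BMP list had 6 higher and 5 lower of 20 genes, the Wnt list 15 and 2 of 25, the Hedgehog list 6 and 0 of 6, the IGF list 9 and 2 of 14, the clock list 9 and 3 of 15, the glucocorticoid list 1 and 8 of 14, the retinoic acid list 3 and 3 of 8, the chemokine list 11 and 1 of 22 and the endothelial list 1 and 0 of 3.

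**Figure D2:**
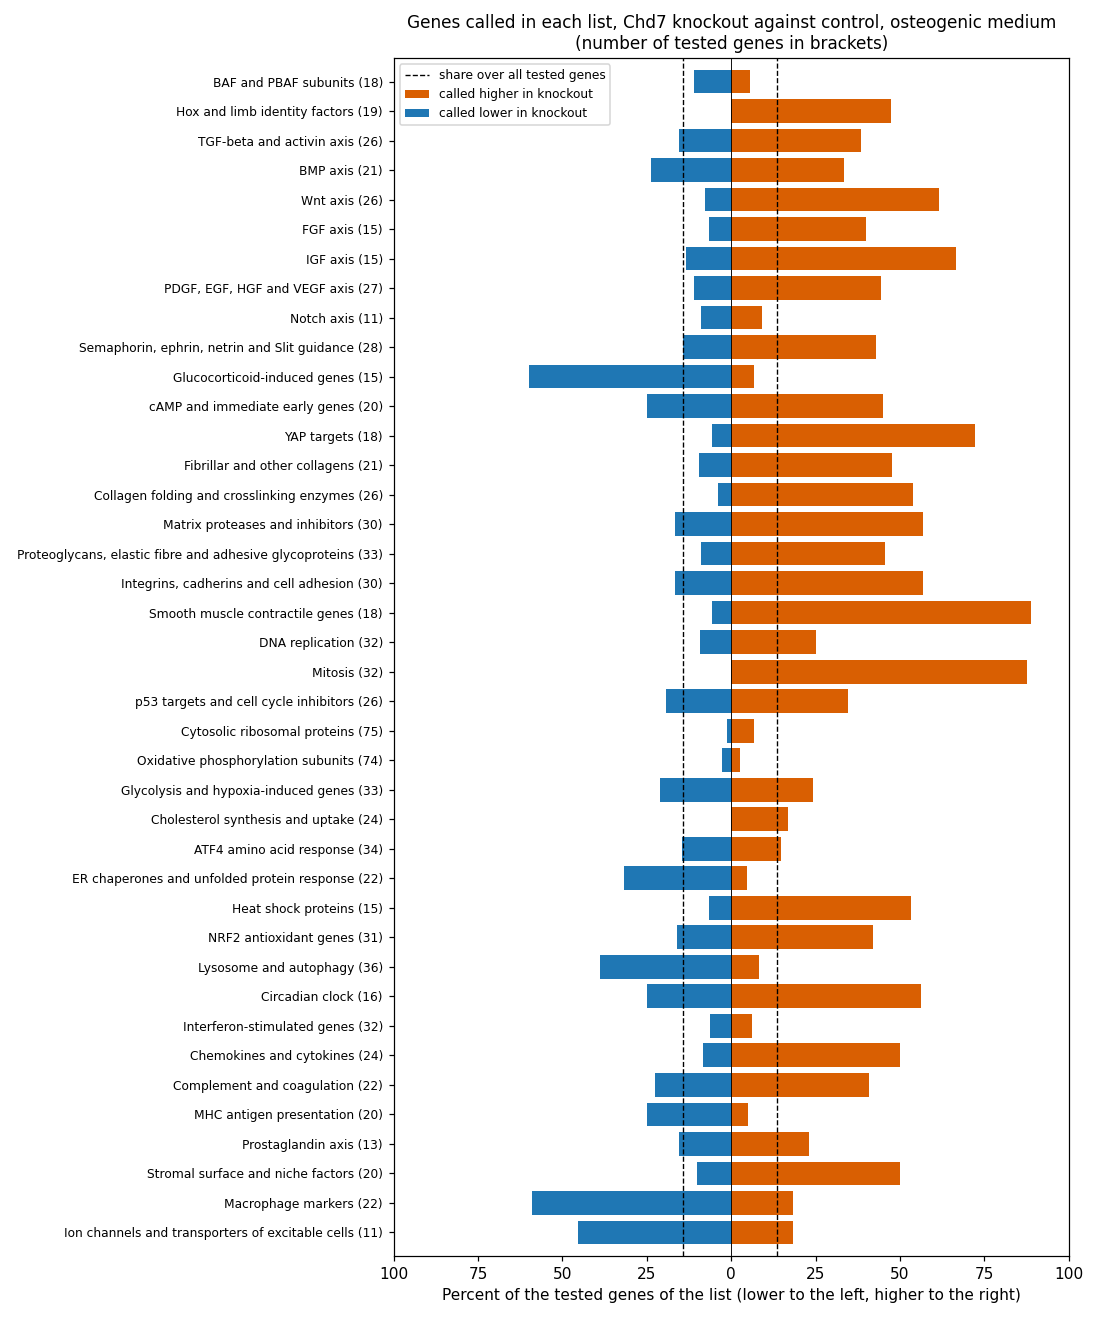
Percent of the tested genes of each list that were called higher (right) or lower (left) in knockout libraries, for lists with at least 10 tested genes, whose number stands in brackets. Dashed lines mark the shares over all tested genes, 13.6% and 14.2%. Contractile and mitosis genes reach furthest to the right, and glucocorticoid-induced genes and macrophage markers furthest to the left.

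Among the 12 largest decreases, 6 were genes of macrophages or other white blood cells. Cd163 (ENSMUSG00000008845, chromosome 6 from 124304656 to 124330527), the scavenger receptor for haemoglobin of resident macrophages, was at 7.98, 8.18 and 7.46 FPKM in the controls and 1.44, 1.52 and 1.35 FPKM in the knockouts (log2FC -1.87 with a standard error of 0.0527, adjusted p = 1.05e-05 in limma). The groups lay far apart in all libraries. Ms4a4a (ENSMUSG00000101389, chromosome 19 from 11375523 to 11392790), a membrane protein of macrophages, stood at 214, 213 and 228 FPKM in the controls and 61.8, 70.2 and 66.7 FPKM in the knockouts (log2FC -1.71 with a standard error of 0.0520, adjusted p = 1.14e-05 in limma). Its neighbour Ms4a6b fell by 1.29, Cd72, an inhibitory receptor of B cells and macrophages, by 1.47, Klhl6, a ubiquitin ligase adaptor of lymphocytes, by 1.31, and Chil3, a chitinase-like protein of alternatively activated macrophages, by 1.31.

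The largest of these decreases was that of Fkbp5 (ENSMUSG00000024222, chromosome 17 from 28399094 to 28517527), a chaperone partner of the glucocorticoid receptor that the hormone induces. It was at 30.6, 32.6 and 31.3 FPKM in the controls and 6.90, 6.29 and 6.19 FPKM in the knockouts (log2FC -2.13 with a standard error of 0.0466, adjusted p = 5.96e-06 in limma). Tsc22d3, which encodes the glucocorticoid-induced leucine zipper, fell by 1.43. The remaining ones were C77080 (-1.68), Cep85 (-1.66), Sult1a1, a sulfotransferase of phenols and hormones (-1.53), and the microRNA gene Mir763, whose 6 values of 3.68, 1.98 and 1.89 FPKM in the controls and 0.928, 0 and 0.458 FPKM in the knockouts were close to the detection limit.

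The 12 largest increases held secreted factors, retinoid genes and macrophage lectins. Timp3 (ENSMUSG00000020044, chromosome 10 from 86300372 to 86349506), an inhibitor of matrix metalloproteinases, was the most abundant of them, at 57.5, 53.3 and 55.7 FPKM in the controls and 143, 139 and 149 FPKM in the knockouts (log2FC 1.36 with a standard error of 0.0395, adjusted p = 1.05e-05 in limma). Nqo1 (ENSMUSG00000003849, chromosome 8 from 107388225 to 107403206), a quinone reductase controlled by the antioxidant factor NRF2, went from 10.8, 10.3 and 11.9 FPKM to 30.8, 32.8 and 34.7 FPKM (log2FC 1.49 with a standard error of 0.0625, adjusted p = 3.91e-05 in limma). Neither gene's groups came near each other. Aldh1a2, which makes retinoic acid, rose by 1.53, and Crabp2, which carries it to the nucleus, by 1.37. Cxcl14, a chemokine of fibroblasts, rose by 1.42, the cytokine receptor gene Il21r by 1.32, the macrophage lectin Clec4n, or Dectin-2, by 1.31, and the inhibitory receptor Pilra by 1.52. The clock output gene Dbp rose by 1.47. The remaining ones, BC002163, Gapdh and Vcp-rs, share sequence with other genes and are described at the end. Of the 24 genes, Clec4n, Cd72, Pilra, Gapdh and Mir763 did not pass with the spread shared with the adipogenic libraries.

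**Figure D3:**
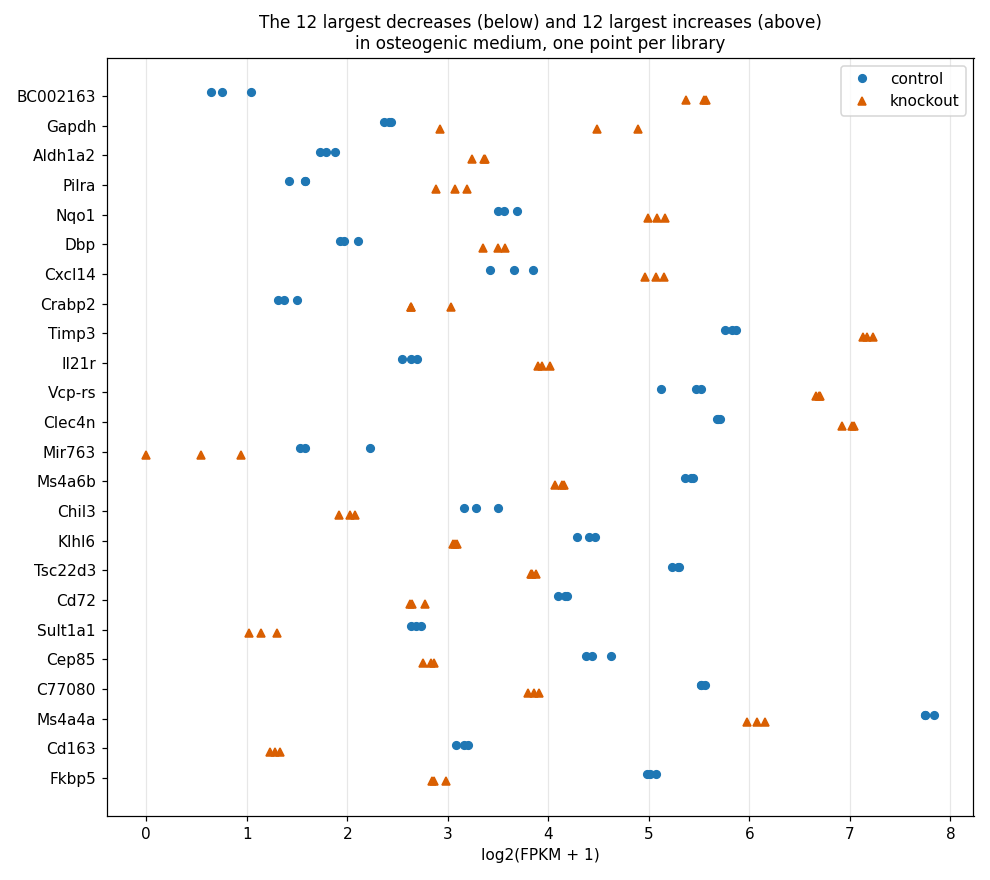
Level of the 24 genes with the largest changes in each library, as log2(FPKM + 1), with control libraries as circles and knockout libraries as triangles. The groups are apart for every gene, as the choice of genes required, and the triangles of Gapdh are the most scattered.

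Of these 24 genes, 20 differed between the media in the size of their genotype difference (limma interaction, adjusted p under 0.05), where 21.0% of all tested genes did. All 20 had a log2FC of the opposite sign in adipogenic medium. The genes were chosen for large changes in osteogenic medium, so a smaller or reversed value in other libraries is not an independent result for the group. Over all tested genes the signs in the 2 media were opposite for 48.7%.

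Glucocorticoid-induced genes were lower in knockout libraries, although both groups received the same dose of dexamethasone. Of 15 tested genes 9 were lower and 1 was higher, with a median log2 fold change of -0.29. Without Zbtb16, which passed the filter only through the controls, 8 of 14 were lower and 1 was higher. Klf9, a transcription factor induced by glucocorticoids and thyroid hormone, was at 17.8, 17.8 and 18.5 FPKM in the controls and 7.39, 7.62 and 7.79 FPKM in the knockouts (log2FC -1.15 with a standard error of 0.0346, adjusted p = 1.14e-05 in limma). Per1, which belongs both to the clock and to the direct targets of the receptor, was at 15.1, 15.2 and 15.3 FPKM and 6.54, 6.34 and 5.96 FPKM (log2FC -1.16 with a standard error of 0.0393, adjusted p = 1.87e-05 in limma). Neither gene's groups overlapped. The zinc finger factor Zbtb16 fell by 1.13, the mTOR inhibitor Ddit4 by 0.80, the metallothionein Mt1 by 0.31, the kinase Sgk1 by 0.29 and the phosphatase Dusp1 by 0.26. The receptor gene Nr3c1 itself was at 10.3 ± 0.433 FPKM in the controls and 10.2 ± 0.544 FPKM in the knockouts (mean ± SD of 3 libraries each), and its log2 fold change was -0.0082 (limma adjusted p = 0.923). Cdkn1a, an inhibitor of the cell cycle, was higher by 0.11, a call that was lost in 5 of the 6 fits that left out 1 library. With a spread shared with the adipogenic libraries 7 remained lower and none was higher.

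Core clock genes changed in both directions. The clock is a loop in which CLOCK and ARNTL drive E-box genes such as the Per, Cry, Nr1d and Dbp genes. The PER and CRY proteins then hold ARNTL back, and the REV-ERB proteins made from Nr1d1 and Nr1d2 repress Arntl and Nfil3. Of 16 tested genes 9 were higher and 4 lower, with a median of 0.42, or 9 and 3 of 15 without Arntl. Of the driving arm, Arntl was at 2.04, 2.03 and 2.03 FPKM in the controls and 0.585, 0.749 and 0.796 FPKM in the knockouts, which places it in the test only through the controls, and Clock fell by 0.16. Nfil3, the repressor of D-box genes, fell by 0.69.

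Of the output and repressor arm, most genes were higher. Dbp (ENSMUSG00000059824, chromosome 7 from 45705088 to 45710203), an activator at D-boxes, was at 3.32, 2.92 and 2.82 FPKM in the controls and 10.3, 10.9 and 9.21 FPKM in the knockouts (log2FC 1.47 with a standard error of 0.0724, adjusted p = 7.41e-05 in limma). Per3 was at 1.40, 1.31 and 1.22 FPKM and 3.53, 3.63 and 3.4 FPKM (log2FC 0.97 with a standard error of 0.0570, adjusted p = 1.34e-04 in limma), and Tef, a relative of Dbp, at 9.99, 9.84 and 9.20 FPKM and 15.6, 16.0 and 16.1 FPKM (log2FC 0.66 with a standard error of 0.0393, adjusted p = 1.35e-04 in limma). All 3 genes were higher in every knockout library than in any control library. Per2 rose by 0.62, Nr1d1 by 0.70, Nr1d2 by 0.60, Ciart by 0.52, Bhlhe40 by 0.43 and Cry2 by 0.41. Per1 stood apart from the other Per genes, with its fall of 1.16. Cry1 and Bhlhe41 did not pass, at 0.10 and -0.019. The counts were 8 higher and 2 lower with the spread shared with the adipogenic libraries, and 9 were higher in each fit that left out 1 library. The time of day at which cells were collected is not given for either group, and its part in these values was not tested.

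**Figure D4:**
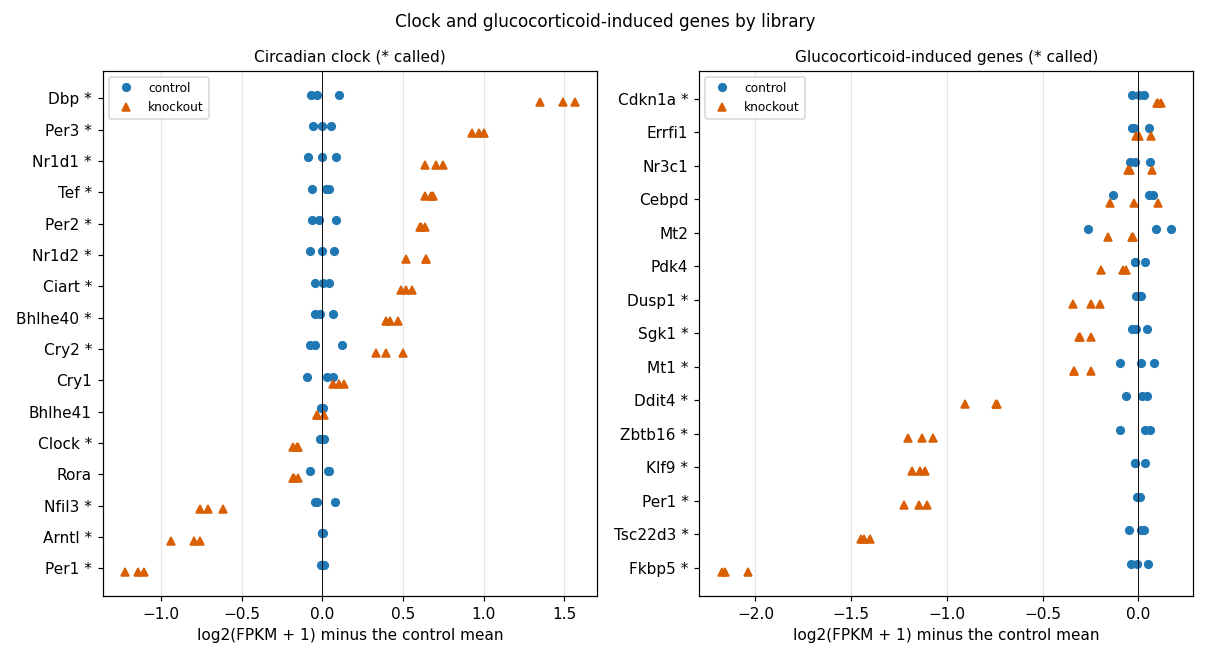
Level of each tested clock gene (left) and glucocorticoid-induced gene (right) in each library, as log2(FPKM + 1) minus the mean of the control libraries. Circles are control and triangles knockout libraries, and an asterisk marks genes with a limma adjusted p under 0.05. Dbp lies furthest to the right at 1.47, and Fkbp5 furthest to the left at -2.13.

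Promoters were searched for the elements through which these factors act. RefSeq windows on GRCm38.p6, from 250 bases before to 50 bases after the start of transcription, matched 8830 of the tested genes by symbol. The E-box CACGTG, read on both strands, was in 5 of the 14 clock windows and in 10.7% of all windows. The D-box, searched as TTATGNAA on both strands, was in 2 of the 14 and in 1.89% of all. The start of Per1 in RefSeq lies 3732 bases from the 5′ end of the gene in GENCODE. The stretches below are the 150 bases before the start of Tef at chr15:81802523-81802672 (plus strand), with its E-box in capitals, and of Per1 at chr11:69098799-69098948 (plus strand), with its D-box in capitals. They are shown as examples of the 2 elements in this list. The window of Per1 also holds an E-box, which lies outside the stretch.
Tef: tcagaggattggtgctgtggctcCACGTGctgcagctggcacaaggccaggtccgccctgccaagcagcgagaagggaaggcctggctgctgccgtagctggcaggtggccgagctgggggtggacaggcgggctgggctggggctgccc
Per1: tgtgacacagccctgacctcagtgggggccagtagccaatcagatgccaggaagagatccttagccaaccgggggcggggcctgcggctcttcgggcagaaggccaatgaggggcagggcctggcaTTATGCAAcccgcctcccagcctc
A match shows only that the letters are there. The glucocorticoid element core ACANNNTGT, which matches itself on the other strand, was in 1 of the 12 glucocorticoid-induced windows, that of Mt1, and in 3.66% of all windows.

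Genes of mitosis rose together, while genes of DNA replication rose less often and some fell. Of 32 mitosis genes 28 were higher and none was lower, with a median of 0.36, and all 32 had a positive log2 fold change. Cdc20 (ENSMUSG00000006398, chromosome 4 from 118432901 to 118437352), the activator of the anaphase-promoting complex, was at 13.5, 14.7 and 15.2 FPKM in the controls and 28.6, 26.3 and 28.5 FPKM in the knockouts (log2FC 0.90 with a standard error of 0.0535, adjusted p = 1.36e-04 in limma). Ube2c, the ubiquitin-conjugating enzyme of the same complex, was at 10.1, 10.5 and 10.5 FPKM and 16.9, 16.1 and 16.3 FPKM (log2FC 0.62 with a standard error of 0.0341, adjusted p = 1.07e-04 in limma). The groups were well apart for both genes. The mitotic kinesin Kif20a rose by 0.68, the kinases Aurka and Plk1 by 0.62 and 0.52, cyclin Ccnb1 by 0.56 and the spindle factor Tpx2 by 0.55. Mki67, the usual marker of cycling cells, was at 20.9, 22.4 and 18.8 FPKM in the controls and 21.7, 20.8 and 21.1 FPKM in the knockouts, with overlapping groups (log2FC 0.037 with a standard error of 0.0618, adjusted p = 0.698 in limma). Aurkb also missed the threshold, at 0.094.

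Of 32 replication genes 8 were higher and 3 lower, with a median of 0.082. The shares were 25% and 9.38%, against 13.6% and 14.2% over all tested genes. The share of higher genes thus lay above the background and that of lower genes under it. Of the 32 log2 fold changes 25 were positive and 7 negative. Ccne1, the cyclin that starts S phase, rose by 0.49, and Rrm2 and Rrm1, the subunits of ribonucleotide reductase, by 0.36 and 0.20. E2f2 fell by 0.36, the licensing factor Cdt1 by 0.30 and the sliding clamp Pcna by 0.17. The helicase subunits Mcm3 and Mcm6 lay at 0.004 and -0.0023. The mitosis count depended on the estimate of the spread. It was 25 to 29 when 1 library was left out but 8 with the spread shared with the adipogenic libraries, where the replication count was 1 higher and 0 lower.

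**Figure D5:**
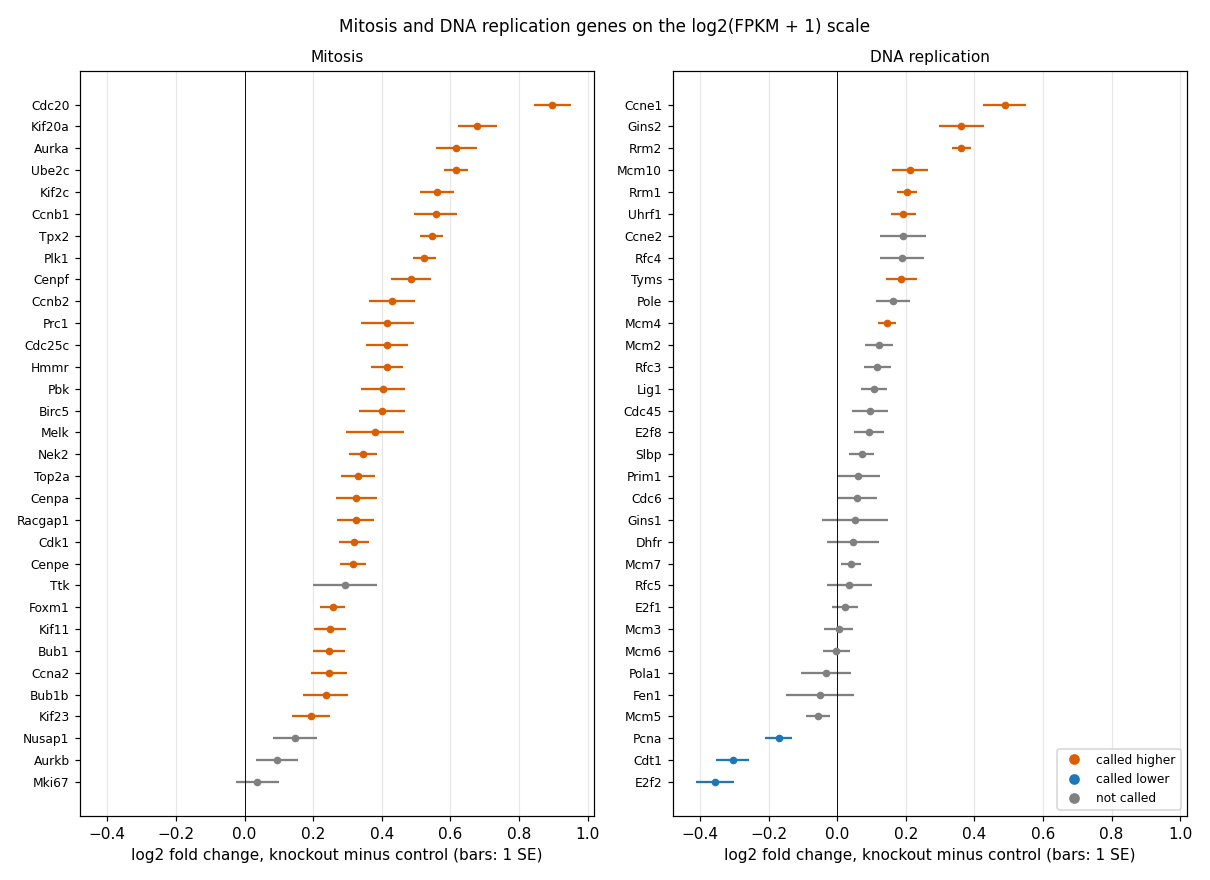
Log2 fold change of each tested mitosis gene (left) and DNA replication gene (right), knockout minus control on the log2(FPKM + 1) scale, with bars of 1 standard error. All mitosis genes lie to the right of 0, from Mki67 at 0.037 to Cdc20 at 0.90, while replication genes lie on both sides.

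Promoters of mitosis genes are known to share a CHR element, which binds the DREAM and B-MYB complexes, and CCAAT boxes bound by NF-Y. The CHR letters TTTGAA, read on both strands, were in 18 of 25 mitosis windows (72.0%), in 4 of 26 replication windows (15.4%) and in 11.8% of all windows. CCAAT, on both strands, was in 21 of the 25 mitosis windows, in 17 of the 26 replication windows and in 38.5% of all windows. It was also in 12 of 14 clock, 13 of 24 NRF2 and 6 of 12 glucocorticoid-induced windows, and so was not particular to mitosis genes. Over all genes, the windows of those called higher held TTTGAA in 13% and those of genes called lower in 11.1%. The stretches below hold the 150 bases before the start of 3 mitosis genes named above, Cdc20 at chr4:118437344-118437493 (minus strand), Ube2c at chr2:164769779-164769928 (plus strand) and Plk1 at chr7:122159285-122159434 (plus strand), with CHR and CCAAT letters of either strand in capitals.
Cdc20: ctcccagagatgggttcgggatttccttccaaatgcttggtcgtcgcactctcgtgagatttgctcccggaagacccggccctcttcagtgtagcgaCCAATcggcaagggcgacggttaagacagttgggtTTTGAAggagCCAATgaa
Ube2c: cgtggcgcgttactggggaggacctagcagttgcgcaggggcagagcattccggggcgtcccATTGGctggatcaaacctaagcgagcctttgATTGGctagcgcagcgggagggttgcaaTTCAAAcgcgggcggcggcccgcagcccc
Plk1: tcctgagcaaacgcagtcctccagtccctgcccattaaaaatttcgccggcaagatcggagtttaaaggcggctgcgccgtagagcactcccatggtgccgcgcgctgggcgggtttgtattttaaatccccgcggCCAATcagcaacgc
In the stretch of Plk1 only a CCAAT box was found, and the CHR letters of its window lie outside the stretch.

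Genes of the contractile apparatus were higher in knockout libraries almost without exception. Of 18 tested smooth muscle contractile genes 16 were higher and 1 was lower, with a median of 0.41. Myl9, the regulatory light chain of smooth muscle myosin, was at 152, 152 and 151 FPKM in the controls and 231, 216 and 230.1 FPKM in the knockouts (log2FC 0.57 with a standard error of 0.0325, adjusted p = 1.20e-04 in limma). Tpm1, a tropomyosin, was at 84.2, 83.3 and 88.0 FPKM and 128, 125 and 134 FPKM (log2FC 0.59 with a standard error of 0.0360, adjusted p = 1.39e-04 in limma). Neither overlapped. Acta2, the smooth muscle actin that marks myofibroblasts, was among the most abundant and went from 736 ± 21.5 to 979 ± 25.7 FPKM (mean ± SD of 3 libraries each), a rise of 0.41. Actg2 rose by 0.68, Cnn1 by 0.53, Mylk by 0.51, Cald1 by 0.40 and the transcription factor Srf by 0.25. Mrtfa, which encodes the actin-sensing partner of SRF, fell by 0.22, and Lmod1 was at 0.22 (limma adjusted p = 0.0548). The summed level of the list was 1732 to 1761 FPKM in the controls and 2236 to 2366 FPKM in the knockouts. With the spread shared with the adipogenic libraries 10 genes were higher and none was lower.

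YAP targets, which respond to cell spreading and matrix stiffness, went the same way. Of 18 tested genes 13 were higher and 1 was lower, with a median of 0.26. Crim1 rose by 0.51, Ajuba by 0.45, Amotl2 by 0.37 and Arhgef17 by 0.35. Ccn2, the most abundant target, was at 267 ± 3.89 FPKM in the controls and 284 ± 14.0 FPKM in the knockouts (mean ± SD of 3 libraries each) and did not pass (log2FC 0.086 with a standard error of 0.0394, adjusted p = 0.154 in limma). The count of higher genes was 8 with the spread shared with the adipogenic libraries.

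In the BMP pathway the ligands and receptors that passed were higher, and the direct targets that passed were lower. The ligand Bmp4 was at 0.760, 0.529 and 0.478 FPKM in the controls and 2.25, 2.48 and 1.83 FPKM in the knockouts, which places it in the test only through the knockouts. The ligand Bmp5 rose by 0.37, the type I receptors Bmpr1a and Acvrl1 by 0.31 and 0.47, the co-receptor endoglin (Eng) by 0.28 and the extracellular regulators Twsg1 and Bmp1 by 0.29 and 0.29. The Id genes, inhibitors of differentiation that BMP signals switch on through SMAD proteins, all fell. Id1 (ENSMUSG00000042745, chromosome 2 from 152736251 to 152737410) was at 47.9, 55.6 and 51.7 FPKM in the controls and 19.4, 23.1 and 21.2 FPKM in the knockouts (log2FC -1.25 with a standard error of 0.0757, adjusted p = 1.39e-04 in limma). Id2 (ENSMUSG00000020644, chromosome 12 from 25093799 to 25097140) was at 86.9, 87.7 and 89.3 FPKM and 41.9, 47.8 and 44.3 FPKM (log2FC -0.96 with a standard error of 0.0478, adjusted p = 7.41e-05 in limma). No library of either group reached the range of the other for these genes. Id3 fell by 0.59, Id4 by 0.34 and the inhibitory Smad6, another direct target, by 0.35. The signal carriers Smad1 and Smad5 and the antagonist Grem1 did not pass, at -0.11, 0.10 and 0.079. In all, 7 of 21 tested genes were higher and 5 lower, with a median of 0.10, or 6 and 5 of 20 without Bmp4. The counts were 3 higher and 4 lower with the spread shared with the adipogenic libraries.

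In the TGF-β and activin pathway 10 of 26 tested genes were higher and 4 lower, with a median of 0.099. Thbs1, a matrix protein that activates latent TGF-β, was at 498, 473 and 479 FPKM in the controls and 796, 782 and 835 FPKM in the knockouts (log2FC 0.73 with a standard error of 0.0358, adjusted p = 7.22e-05 in limma), with no overlap. Inhba, the subunit of activin A, rose by 0.53 and Smad3 by 0.38, while the receptor gene Tgfbr1 fell by 0.49. Without control library 1 or knockout library 3 only 2 genes were lower. Here too the count was smaller, 3 higher and 0 lower, with the shared spread.

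Wnt genes were mostly higher, from ligands to inhibitors. Of 26 tested genes 16 were higher and 2 lower, with a median of 0.28, or 15 and 2 of 25 without Wnt4. Sfrp1, a secreted antagonist, was at 6.20, 6.16 and 6.25 FPKM in the controls and 13.2, 14.5 and 14.3 FPKM in the knockouts (log2FC 1.06 with a standard error of 0.0428, adjusted p = 3.39e-05 in limma), while its relative Sfrp2 was at 4.84, 4.23 and 5.20 FPKM and 2.56, 2.21 and 2.68 FPKM (log2FC -0.72 with a standard error of 0.0825, adjusted p = 0.00129 in limma). The antagonists thus differed in opposite directions without overlap. Of ligands and potentiators, Wnt10b rose by 0.68, Wnt4 by 0.54 and Rspo2 by 0.50, and Rspo3 fell by 0.29. The receptors Fzd1, Fzd2 and Lgr6 rose by 0.58, 0.43 and 0.60, and the target genes Ccn4, Nkd2 and Apcdd1 by 0.56, 0.51 and 0.43. Wnt5a was at -0.08 and did not pass. With the shared spread 12 were higher and 1 was lower.

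All 7 tested Hedgehog genes were higher, or 6 of 6 without Ptch1, with a median of 0.41 over the 7, and they stood at low levels. Smo, which passes the signal into the cell, was at 6.88, 6.37 and 7.33 FPKM in the controls and 10.6, 9.85 and 10.5 FPKM in the knockouts (log2FC 0.53 with a standard error of 0.0542, adjusted p = 8.52e-04 in limma). The ligand co-receptors Gas1, Cdon and Boc rose by 0.71, 0.46 and 0.34, the receptor Ptch1, which is also a target of the pathway, by 0.36, the transcription factor Gli3 by 0.41 and the inhibitor Sufu by 0.15. The other 7 genes of the list, with the ligands Shh, Ihh and Dhh and the target Gli1 among them, were too low to be tested. Under the shared spread 5 of the 7 were higher.

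Of the IGF pathway 10 of 15 tested genes were higher and 2 lower, with a median of 0.30, or 9 and 2 of 14 without Igfbp3. The binding protein Igfbp5 was at 1.77, 1.43 and 1.94 FPKM in the controls and 5.16, 4.08 and 4.85 FPKM in the knockouts (log2FC 1.07 with a standard error of 0.10, adjusted p = 5.87e-04 in limma). Its relatives Igfbp4 and Igfbp3 rose by 0.40 and 0.46. The imprinted RNA H19 rose by 0.83 and the adaptors Irs1 and Grb10 by 0.74 and 0.47, while Irs2 and the insulin receptor Insr fell by 0.22 and 0.18. The ligand Igf1 was at -0.064 and did not pass. The numbers were 4 and 0 with the shared spread.

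Among FGF genes 6 of 15 were higher and 1 lower, with a median of 0.085. The ligands Fgf2 and Fgf7 rose by 0.79 and 0.63, and the receptor Fgfr1 was at 0.14 (limma adjusted p = 0.0694). Of the PDGF, EGF, HGF and VEGF genes 12 of 27 were higher and 3 lower, with a median of 0.16. Angpt1, a ligand that steadies vessels, rose by 0.70, the receptor Egfr by 0.43 and its ligand Hbegf by 0.41, while Pdgfrb was at 0.08 and did not pass. Of guidance genes of the semaphorin, ephrin, netrin and Slit families 12 of 28 were higher and 4 lower, with a median of 0.13. Sema3c rose by 0.70 and Slit2 by 0.48, and Sema4d, which white blood cells carry, fell by 0.39. The counts of higher genes were smaller with the shared spread, 4 of the FGF list, 3 of the PDGF, EGF, HGF and VEGF list and 6 of the guidance list, with none lower.

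Of 11 tested Notch genes 1 was higher, the target Hes1 by 0.30, and 1 lower, the coactivator Maml2 by 0.30, with a median of -0.086. These shares were 9.09% and 9.09%, against 13.6% and 14.2% over all tested genes. The retinoic acid pathway was split, with 3 of 9 genes higher and 4 lower and a median of 0.099, or 3 and 3 of 8 without Cyp26b1. The synthesis enzyme Aldh1a2 was at 2.31, 2.44 and 2.67 FPKM in the controls and 9.29, 8.45 and 9.31 FPKM in the knockouts (log2FC 1.53 with a standard error of 0.0581, adjusted p = 2.57e-05 in limma), and the carrier Crabp2 was at 1.84, 1.48 and 1.58 FPKM and 7.20, 5.23 and 5.19 FPKM (log2FC 1.37 with a standard error of 0.119, adjusted p = 4.56e-04 in limma). Rdh10, which makes retinaldehyde, did not pass, at 0.10, and Dhrs3, which turns retinaldehyde back to retinol, fell by 0.16. The degrading enzyme Cyp26b1, itself a target of retinoic acid, fell by 0.39, and the receptors Rxra and Rxrb by 0.16 and 0.17, while Rarg rose by 0.19. With the shared spread the 3 were higher and none was lower.

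Genes of the extracellular matrix were more often higher than lower, at modest folds. Of 21 collagen genes 10 were higher and 2 lower, with a median of 0.21. The minor collagens Col8a1, Col16a1 and Col11a1 rose by 0.62, 0.49 and 0.49, and Col5a2 from 124 ± 6.57 to 158 ± 4.18 FPKM (mean ± SD of 3 libraries each), by 0.35. Col1a1 did not pass (log2FC 0.10 with a standard error of 0.0923, adjusted p = 0.481 in limma), and its groups overlapped. Of 26 collagen folding and crosslinking enzymes 14 were higher and 1 lower, with a median of 0.17. The collagen chaperone Serpinh1 rose by 0.31, and the lysyl hydroxylase Plod1 fell from 46.7, 45.5 and 47.1 FPKM to 36.0, 33.6 and 34.8 FPKM (log2FC -0.41 with a standard error of 0.0337, adjusted p = 4.01e-04 in limma). Of 33 proteoglycans and glycoproteins 15 were higher and 3 lower, with a median of 0.16, led by the hyaluronan synthase Has2 (0.70), the elastic fibre protein Fbln5 (0.52) and biglycan (Bgn, 0.36).

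Of 30 matrix proteases and inhibitors 17 were higher and 5 lower, with a median of 0.26. The plasminogen activator Plau rose by 0.80 and the collagenase Mmp8 by 0.60, next to the inhibitor Timp3 described above. Adam8, a protease of myeloid cells, fell from 373, 383 and 368 FPKM to 245, 250.1 and 249 FPKM (log2FC -0.59 with a standard error of 0.0262, adjusted p = 5.04e-05 in limma). Mmp13 was at -0.26 and did not pass. Of 30 integrin, cadherin and adhesion genes 17 were higher and 5 lower, with a median of 0.22. The glypican Gpc1 rose by 0.73 and the syndecan Sdc2 by 0.37, and the laminin receptor subunit Itga6 fell by 0.55. Under the shared spread the higher genes numbered 9 collagens, 5 enzymes, 9 proteoglycans and glycoproteins, 6 proteases and inhibitors, and 8 adhesion genes. The summed collagen level was 1522 to 1779 FPKM in the controls and 1658 to 1882 FPKM in the knockouts, so that it overlapped between the groups.

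Transcription factors of limb and axial identity, which keep the position of the mesenchyme they were formed in, were higher wherever they passed. Of 19 tested genes 9 were higher and none was lower, with a median of 0.34. Hoxa10 was at 3.41, 2.13 and 3.03 FPKM in the controls and 5.50, 5.92 and 6.36 FPKM in the knockouts (log2FC 0.86 with a standard error of 0.127, adjusted p = 0.00345 in limma). Hoxa11, Hoxa6 and Hoxc10 rose by 0.63, 0.64 and 0.58, and the limb factors Shox2, Prrx2 and Pitx1 by 0.54, 0.46 and 0.34. Prrx1, whose promoter drives Cre in these mice, rose from 14.3, 14.1 and 14.4 FPKM to 16.5, 16.2 and 17.0 FPKM (log2FC 0.20 with a standard error of 0.0315, adjusted p = 0.00441 in limma). The other 26 genes of the list were below the filter. With the shared spread 5 were higher. In the stromal and niche list 10 of 20 were higher and 2 lower, with a median of 0.22. Cxcl12, the chemokine that holds blood stem cells in the marrow, was at 8.27, 8.69 and 8.68 FPKM in the controls and 14.6, 13.8 and 13.1 FPKM in the knockouts (log2FC 0.64 with a standard error of 0.0466, adjusted p = 2.65e-04 in limma), with no overlap. Tnfrsf11b, the decoy receptor for RANKL, rose by 0.80 and the niche factor Foxc1 by 0.66. The summed macrophage markers without Lyz2 were lower in the same knockout libraries, and their part in the higher stromal values was not tested.

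Of 9 tested CHD genes 1 was higher and 2 lower, Chd7 among them, with a median of -0.015. These shares were 11.1% and 22.2%, against 13.6% and 14.2% over all tested genes. With the shared spread 1 was higher and 0 lower, and each fit that left out 1 library gave 1 lower. Chd3 rose by 0.27 and Chd2 fell by 0.22, while Chd4 and Chd1 were at 0.018 and 0.0021. Of 18 BAF and PBAF subunits 1 was higher, Smarcc1 by 0.17, and 2 were lower, Smarcd2 by 0.20 and Brd7 by 0.16, with a median of -0.036. Both shares, 5.56% and 11.1%, lay under those over all tested genes. The ATPase Smarca4 was at 0.082 and did not pass.

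Macrophage genes changed in both directions, more of them down than up. Of 22 markers 13 were lower and 4 higher, with a median of -0.14. Csf1r was at 296, 307 and 299 FPKM in the controls and 186, 187 and 188 FPKM in the knockouts (log2FC -0.68 with a standard error of 0.0250, adjusted p = 2.23e-05 in limma), and the lineage factor Spi1, or PU.1, fell by 0.33. The fractalkine receptor Cx3cr1 fell by 0.75, Cd14 by 0.63 and Mpeg1 by 0.34. Against this, Lyz2 rose by 0.28 and Aif1 by 0.33. Even the subunits of C1q parted, with C1qa at 603, 601 and 609 FPKM in the controls and 847, 804 and 786 FPKM in the knockouts (log2FC 0.43 with a standard error of 0.0339, adjusted p = 3.55e-04 in limma), and C1qb at 1632, 1655 and 1627 FPKM and 1326, 1288 and 1259 FPKM (log2FC -0.34 with a standard error of 0.0302, adjusted p = 4.77e-04 in limma). Adgre1 and Fcer1g did not pass, at -0.13 and -0.13. Under the shared spread 5 were lower and 1 was higher, and leaving out 1 library gave 9 to 12 lower and 4 higher.

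Families of macrophage receptors, chosen after their values were seen, held calls in both directions. Over all tested genes 13.6% were higher and 14.2% lower. Of 8 tested Ms4a genes 5 were lower and 2 higher, among them Ms4a6c at -1.03 and Ms4a6d at -0.58 on one side and Ms4a14 at 0.65 on the other. Of 9 Toll-like receptors 5 were lower and 1 was higher. Of the receptors of nucleic acids, Tlr7 was at 55.0, 58.7 and 56.4 FPKM in the controls and 23.7, 24.4 and 23.8 FPKM in the knockouts (log2FC -1.21 with a standard error of 0.0329, adjusted p = 1.05e-05 in limma). Tlr9 fell by 0.82, Tlr13 by 0.73 and Tlr8 by 0.66, while Tlr3 was at -0.10 and did not pass. At the cell surface Tlr4 fell by 0.33 and Tlr2 rose by 0.50. Of 13 C-type lectins 4 were higher, with the β-glucan receptor Clec7a at 1.08, and 3 lower, with Clec4a1 at -0.71. All 3 paired receptors of the Pilr family were higher, and of 4 Fcγ receptors 1 was higher and 1 lower.

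Lysosomal genes, which macrophages express strongly, were lower more often than higher. Of 36 tested genes 14 were lower and 3 higher, with a median of -0.068, and the summed level was 16932 to 17319 FPKM in the controls and 14967 to 15450 FPKM in the knockouts. Ctss, a cathepsin of antigen-presenting cells, was at 1919.6, 1912 and 1978 FPKM in the controls and 1497, 1528 and 1481 FPKM in the knockouts (log2FC -0.37 with a standard error of 0.0294, adjusted p = 3.65e-04 in limma). Gusb fell by 0.34, the cholesterol transporter Npc1 by 0.34 and Psap by 0.26, and Ctsd was at -0.079 without passing. For this list the shared spread gave 6 lower and 0 higher genes. Atp6v0d2, a proton pump subunit of osteoclasts and macrophages, rose from 35.0, 35.9 and 37.6 FPKM to 55.1, 59.5 and 56.4 FPKM (log2FC 0.64 with a standard error of 0.0408, adjusted p = 1.58e-04 in limma). Of 7 tested osteoclast markers 3 were higher, Atp6v0d2, Mmp9 (0.55) and Itgb3 (0.37), and 1 was lower, the RANK gene Tnfrsf11a (-0.56). Their median was 0.33, and Ctsk was at 0.22 (limma adjusted p = 0.0536). Mmp9 stood at only 0.592 to 1.01 FPKM in the controls. With the shared spread 0 osteoclast markers were higher and 1 was lower, and leaving out 1 library gave 2 to 4 higher. The fusion genes Dcstamp and Ocstamp and the receptor Calcr were not above the filter.

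Chemokines and cytokines were more often higher than lower, with 12 of 24 tested genes up, 2 down and a median of 0.29. Cxcl14 was at 9.69, 11.7 and 13.3 FPKM in the controls and 30.1, 32.6 and 34.6 FPKM in the knockouts (log2FC 1.42 with a standard error of 0.108, adjusted p = 3.08e-04 in limma), and Spp1, or osteopontin, at 1375, 1261 and 1499.8 FPKM and 2099, 2075 and 2218 FPKM (log2FC 0.63 with a standard error of 0.0653, adjusted p = 8.54e-04 in limma). Cx3cl1 rose by 0.78, Lif by 0.74, Ccl6 by 0.58, Ccl4 by 0.57 and Tnf by 0.47. Cxcl5 fell by 0.63 and the receptor Cxcr4 by 0.22, and Ccl2 and Ccl7 did not pass, at 0.19 and -0.11. With the shared spread 4 were higher and 0 lower. Of 22 complement and coagulation genes 9 were higher and 5 lower, with a median of 0.16, and the anticoagulant receptors Procr and Thbd rose by 0.71 and 0.72. The lower genes numbered 3 or 4 when 1 library was left out, and the shared spread gave 3 higher and 1 lower.

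Of 20 MHC genes 5 were lower and 1 higher, with a median of -0.069. B2m, the light chain of class I molecules, fell from 1091 ± 63.2 to 954 ± 19.4 FPKM (mean ± SD of 3 libraries each), by 0.19, and the class I gene H2-D1 by 0.20. No MHC gene passed in either direction with the shared spread, and none was lower without knockout library 3. Of 32 interferon-stimulated genes 2 were higher, Gbp2 (0.43) and Irf1 (0.19), and 2 lower, Xaf1 (-0.73) and Trim30a (-0.47), with a median of -0.092. These calls were not stable, with 0 to 5 higher and 0 to 3 lower when 1 library was left out and none with the shared spread. Of 13 prostaglandin genes 3 were higher and 2 lower, with a median of 0.12, among them the receptor Ptger2 (-0.73) and the cyclooxygenase Ptgs2 (0.31). These shares were 23.1% and 15.4%, against 13.6% and 14.2% over all tested genes.

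Of 75 ribosomal protein genes 5 were higher and 1 lower, with a median of 0.0056, and of 74 subunits of oxidative phosphorylation 2 were higher and 2 lower, with a median of 0.039. Of 33 glycolytic and hypoxia-induced genes 8 were higher and 7 lower, with a median of 0.045. These shares were 24.2% and 21.2%, against 13.6% and 14.2% over all tested genes. Aldoc rose by 0.55, and Eno2 and Adm fell by 0.51 and 0.43, while the abundant enzymes Pkm and Aldoa did not pass, at 0.12 and 0.061. The glycolysis counts were 1 higher and 2 lower with the shared spread and fell to as few as 4 higher without knockout library 1 and 4 lower without knockout library 3. Of 24 cholesterol genes 4 were higher and none was lower, with a median of 0.082, led by Dhcr7 (0.37) and Mvd (0.32). The higher share of 16.7% was near the 13.6% over all tested genes. None of the 4 passed with the shared spread, and 2 genes did without control library 1, control library 2 or knockout library 2.

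Stress pathways differed from each other. Of 31 NRF2 genes 13 were higher and 5 lower, with a median of 0.099. The peroxiredoxins Prdx6 and Prdx1 rose by 0.57 and 0.39 and the malic enzyme Me1 by 0.52, beside Nqo1, while the glutathione peroxidase Gpx3 fell by 0.38 and the synthesis subunit Gclm by 0.18. The antioxidant element core TGACNNNGC, on both strands, was in 7 of the 24 windows of this list and in 14.9% of all windows. It was also in 4 of 14 clock, 3 of 12 glucocorticoid-induced, 5 of 26 replication and 3 of 25 mitosis windows. By the shared spread 3 NRF2 genes were higher and 2 lower, and without knockout library 1 the lower ones numbered 3. Of 15 heat shock genes 8 were higher and 1 lower, with a median of 0.14, and Hsph1 rose by 0.28 and Cryab fell by 0.29, but no gene of this list was called with the shared spread, and 4 to 6 were higher when 1 library was left out. Of 22 genes of the unfolded protein response 7 were lower and 1 was higher, with a median of -0.061, and the transcription factor Xbp1 and its target Edem1 fell by 0.34 and 0.34. By the shared spread 2 were lower and 0 higher. The abundant chaperones Calr and Pdia3 lay at -0.087 and -0.012 and did not pass.

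Of 34 ATF4 genes 5 were higher and 5 lower, with a median of 0.028. These shares, 14.7% and 14.7%, were near those over all tested genes, 13.6% and 14.2%. Atf4 itself fell by 0.19 and Cebpg by 0.38. Without knockout library 1 the higher genes numbered 1. Of 26 p53 targets and cell cycle inhibitors 9 were higher and 5 lower, with a median of 0.066. Cdkn2a, which encodes p16 and ARF, was at 28.0, 26.8 and 29.8 FPKM in the controls and 40.7, 38.0 and 39.7 FPKM in the knockouts (log2FC 0.47 with a standard error of 0.0462, adjusted p = 7.03e-04 in limma), without overlap, and Plk2 rose by 0.40 while Trp53inp1 fell by 0.31. Of 20 immediate early genes 9 were higher and 5 lower, with a median of 0.13. Egr2 rose by 0.80, Ier3 by 0.66 and Junb by 0.31, and Klf6 fell by 0.39, while Fos and Jun did not pass, at -0.038 and -0.094. The shared spread left 4 higher and 1 lower p53 genes and 3 higher and 2 lower immediate early genes.

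Endothelial markers stood at low levels. Of 18 genes 6 were tested, of which 4 were higher and none was lower, with a median of 0.93. Cdh5, the cadherin of endothelial junctions, was at 0.722, 0.708 and 0.552 FPKM in the controls and 3.15, 2.55 and 2.77 FPKM in the knockouts, and Emcn at 0.367, 0.583 and 0.345 FPKM and 1.88, 2.10 and 1.98 FPKM. These genes and Pecam1 entered the test only through the knockouts, so that the count and the median over the tested markers are no support. Plvap was the only called marker not chosen in this way, at 1.58, 1.17 and 1.05 FPKM in the controls and 4.15, 4.53 and 3.76 FPKM in the knockouts (log2FC 1.19 with a standard error of 0.102, adjusted p = 4.51e-04 in limma). The endothelial receptors Kdr, Tek and Flt1 were below the filter, Vwf and Ednrb were at 0.10 and 0.20 and did not pass, and no endothelial marker of the list was at 0 in all 6 libraries.

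Other lineages were represented by single genes. Of 6 tested chondrocyte markers 3 were higher and 1 lower, with a median of 0.28. Without the marker that passed the filter only through the knockouts, 2 of 5 were higher and 1 lower. Col2a1, the cartilage collagen, was at 1.01, 1.15 and 0.759 FPKM in the controls and 2.27, 3.98 and 2.88 FPKM in the knockouts (log2FC 1.02 with a standard error of 0.160, adjusted p = 0.00456 in limma), and lubricin (Prg4) fell by 0.70, while Sox9, the lineage factor, did not pass, at 0.062. Of 4 tendon markers 2 were higher, with a median of 0.29, the tendon factor Scx (1.04) and the immediate early gene Egr1 (0.33). Of 4 pericyte markers 1 was higher, Mcam (0.62), with a median of 0.072. Of 5 neural and Schwann cell markers 3 were higher, Tubb3 (0.95), Nes (0.83) and Ncam1 (0.22), and 1 lower, Mbp (-0.26), with a median of 0.22. The Schwann cell marker Sox10 was below the filter. The only skeletal muscle marker tested was Acta1, which rose by 0.97, and Myod1, Pax7 and Ckm were at 0. In the lymphoid list the only call was Cd4 (0.39), which macrophages can also carry, in the megakaryocyte list it was Pf4 (0.20), and S100a8, the only neutrophil marker tested, was at 0.12 and did not pass.

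Of 11 channels and transporters of excitable cells 2 were higher and 5 lower, with a median of -0.11. Gja1, the gap junction protein connexin 43, was at 9.25, 8.23 and 9.38 FPKM in the controls and 14.5, 14.9 and 15.6 FPKM in the knockouts (log2FC 0.69 with a standard error of 0.0546, adjusted p = 3.52e-04 in limma). The potassium channels Kcnn4 and Kcnj2 fell by 0.36 and 0.31, and the mechanosensor Piezo1 lay at -0.00075 with overlapping groups. Of 5 tested adrenergic receptors, a family chosen after its values were seen, 1 was higher and 4 were lower. Over all tested genes 13.6% were higher and 14.2% lower. Adrb1 and Adra1a passed the filter only through the controls, so their calls are no support. Adra2a was at 24.4, 23.1 and 22.1 FPKM in the controls and 12.7, 11 and 11.2 FPKM in the knockouts (log2FC -0.94 with a standard error of 0.0609, adjusted p = 1.62e-04 in limma), Adrb1 and Adra1a fell by 1.06 and 0.97, and Adra1d rose by 0.93.

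Some of the largest values concern genes that share sequence with a copy elsewhere in the genome and are uncertain. BC002163 (ENSMUSG00000081824, chromosome 16 from 42955631 to 42955949) had the largest increase among the named genes, from 0.691, 0.559 and 1.06 FPKM in the controls to 45.7, 46.4 and 40.3 FPKM in the knockouts (log2FC 4.68 with a standard error of 0.109, adjusted p = 5.96e-06 in limma). Of its 289 words of 31 bases 81.0% also occur in transcripts of Ndufs5, a subunit of respiratory complex I that fell by 0.64. In fragments, the pair summed to 737 to 770 in control and 713 to 786 in knockout libraries, while BC002163 took 3 to 6 of them in control and 234 to 268 in knockout libraries. The sum thus overlapped between the groups while its division did not. Vcp-rs shares 89.5% of its 2376 words with Vcp, and it took 1479 to 1843 of 9498 to 10159 fragments of the pair in control and 4344 to 4504 of 11033 to 11499 in knockout libraries. Gapdh was listed at 4.34, 4.14 and 4.42 FPKM in the controls and 21.3, 6.58 and 28.7 FPKM in the knockouts, far under the other abundant glycolytic enzymes, and its change of 1.69 (standard error 0.465, limma adjusted p = 0.0360) was lost when any 1 library other than knockout library 2 was left out. Gapdh has many processed copies, and whether its fragments were spread over them was not tested. The ribosomal gene Rps27a, up by 0.76, belongs to a family with many such copies too.

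Long and highly expressed genes were called more often. With the tested genes split into 5 classes of equal size by their span on the genome, the share of called genes went from 18.2% in the shortest class to 34.5% in the longest. By mean expression it went from 16.7% in the lowest class to 39.2% in the highest. The median log2FC stayed between -0.0196 and 0.0097 in all of these classes.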

How the data were processed

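According to the study, sequencing on an Illumina HiSeq followed library preparation with the NEBNext Ultra kit, and HISAT2 and Ballgown are listed as software, while the submitters' processing notes name Bowtie 0.12.2 and the build mm9. These differ, and strand use and read filters are not given in the sources used here. The authors deposited 1 table of FPKM for 54532 Ensembl genes and 12 libraries. Symbols, exonic lengths and gene positions were taken from a GENCODE annotation of GRCm38 (99.9% matched). For 111 repeated symbols the gene with the highest mean was used. Median-ratio factors of the FPKM were close to 1 in the 6 osteogenic libraries, from 0.996 to 1.007. Fragments were recovered from the steps between low values, of which 98.3% to 98.4% were whole within 0.02 in values under 30 fragments (4% by chance).

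Genes with at least 1 FPKM in 3 of the 6 osteogenic libraries were tested on log2(FPKM + 1) with limma 3.58.1 in R 4.3.3, with a mean-variance trend, Benjamini-Hochberg adjustment and a threshold of 0.05. The interaction was fitted over 12 libraries. Tables and figures were made in Python 3.11.15 with numpy 2.4.6, pandas 2.3.3 and matplotlib 3.10.9. Library groups come from the labels. On simulated data for this comparison with 12258 genes, 47 of 67 genes changed 1.5-fold, 58 of 67 changed 2-fold and 62 of 66 changed 4-fold were called, with 10 unchanged ones.

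The 53 lists were written from general knowledge, and lists and members were chosen with earlier results of these data known. Named are the Chd genes, the 12 largest increases and decreases among called genes with non-overlapping groups and a proper symbol, per list up to 4 called genes with the smallest adjusted p and 2 abundant uncalled ones, and defining markers. Others, such as the Ms4a, Tlr, Clec, Pilr and adrenergic families and further members of lists, were chosen after their values were seen. Alternatives were another pseudocount, no filter, no trend, 2 rescalings, limma voom on recovered fragments, a spread shared over 12 libraries, the replicate number as a block and each library left out. Counting error in fragments covers no amplification. The adipogenic libraries entered only the interaction and the shared spread. Values of some list members are not reported here.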

Additional observations from a re-analysis of the deposited data

Results flagged for a closer look

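For 20 of the 24 genes with the largest changes, the knockout difference in adipogenic medium had the opposite direction, and the difference between the media passed the limma interaction test over all genes. They had been chosen for large changes in osteogenic medium. The contrasts in the 2 media share no library, but the interaction includes the 6 osteogenic libraries on which the choice rested. Its p-values are therefore not independent of that choice. The dose of dexamethasone differed between the media too. The adipogenic control libraries were widely scattered for some of these genes, with Pilra at 42.3 ± 32.5, Clec4n at 192 ± 117 and Cxcl14 at 37.8 ± 20.3 FPKM (mean ± SD of 3 libraries each). Over all genes the interaction calls went from 2575 to 5294 without adipogenic control replicate 2.

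The genes higher in knockout libraries in osteogenic medium follow with their log2 fold changes. Aldh1a2 was at 1.53 in osteogenic and -0.48 in adipogenic medium, an interaction of -2.01 (limma adjusted p = 0.000385). For Pilra the values were 1.52 and -3.00, with an interaction of -4.52 (limma adjusted p = 0.0179). Nqo1 went from 1.49 to -2.87, by -4.36 (limma adjusted p = 1.27e-08). Dbp was at 1.47 in osteogenic and -1.30 in adipogenic medium, an interaction of -2.77 (limma adjusted p = 0.000552). For Cxcl14 the values were 1.42 and -1.47, with an interaction of -2.89 (limma adjusted p = 0.00424). Crabp2 went from 1.37 to -0.34, by -1.71 (limma adjusted p = 0.00149). Timp3 was at 1.36 in osteogenic and -0.50 in adipogenic medium, an interaction of -1.86 (limma adjusted p = 0.00422). For Il21r the values were 1.32 and -0.80, with an interaction of -2.13 (limma adjusted p = 0.00012). Clec4n went from 1.31 to -3.997, by -5.30 (limma adjusted p = 0.000963).

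The genes lower in knockout libraries in osteogenic medium had positive values in adipogenic medium. Fkbp5 was at -2.13 in osteogenic and 2.87 in adipogenic medium, an interaction of 5.00 (limma adjusted p = 8.99e-07). For Cd163 the values were -1.87 and 0.70, with an interaction of 2.56 (limma adjusted p = 8.22e-05). Ms4a4a went from -1.71 to 0.90, by 2.61 (limma adjusted p = 0.00444). C77080 was at -1.68 in osteogenic and 0.17 in adipogenic medium, an interaction of 1.85 (limma adjusted p = 0.00887). For Cep85 the values were -1.66 and 1.24, with an interaction of 2.90 (limma adjusted p = 5.68e-05). Sult1a1 went from -1.53 to 1.69, by 3.22 (limma adjusted p = 1.35e-05). Tsc22d3 was at -1.43 in osteogenic and 2.50 in adipogenic medium, an interaction of 3.93 (limma adjusted p = 7.01e-06). For Klhl6 the values were -1.31 and 2.07, with an interaction of 3.38 (limma adjusted p = 2.23e-05). Chil3 went from -1.31 to 1.48, by 2.79 (limma adjusted p = 8.99e-07). Ms4a6b was at -1.29 in osteogenic and 0.73 in adipogenic medium, an interaction of 2.02 (limma adjusted p = 0.00604). For Mir763 the values were -1.28 and 1.31, with an interaction of 2.59 (limma adjusted p = 0.0134).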

How the results depend on the processing

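The counts of called genes depended most on whether the adipogenic libraries entered the estimate of the spread. With all 12 libraries 1180 genes were called, 641 higher and 539 lower, against 3412, 1668 and 1744, and 81 of the 198 called named genes were no longer called. Among the 24 largest changes these were Clec4n, Cd72, Pilra, Gapdh and Mir763. The counts stayed within 1.5 times under the other alternatives, from 2429 in the fits that left out 1 library (to 2815) to 4039 with limma voom. Scaling by median ratios gave 3390 calls, of which 51.8% were higher, against 48.9%. Among the 292 named genes, none that was called in the main fit or in an alternative had opposite signs in the 2 fits. Sign changes of genes called in neither fit were not counted. The interaction, 2575 genes, ranged from 1733 to 5294 when 1 library was left out, with 5294 without adipogenic control replicate 2, and the cause was not tested. With the replicate number as a block 2837 genes were called, 2700 of them shared with the 3412, and 10 named genes were lost. Equal numbers share only a number, since the correlations of their deviations were -0.0517, 0.0556 and -0.0488. Of the 106 counts of higher or lower genes per list, 75 moved by over 1.5 times with all 12 libraries, 23 without the filter, 16 with the block and 11 to 21 when 1 library was left out.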
